A study of Homo sapiens with 10 samples.

Results

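PABPN1 is a protein that binds poly(A) tails in the nucleus, and polyadenylated nuclear RNA of cells expressing a mutant form of it was compared with that of control cells. The mutant, called LALA, carries the substitutions L119A and L136A. The labels give all cells as HEK293, an established line derived from human embryonic kidney, and the study's methods name the line that received the mutant as 293ATOA. The comparison uses 4 of the 10 samples of the series, 2 libraries of LALA nuclear RNA and 2 of control nuclear RNA. The other groups were nuclear RNA of cells in which siRNA had lowered both PAPα and PAPγ, the canonical polymerases that add poly(A) (siPAP nuclear), siPAP total RNA and control total RNA, with 2 libraries each. LALA was myc-tagged, integrated into the genome of a stable line under a tetracycline-responsive promoter, and induced by taking doxycycline out of the medium 3 days before harvest. The study describes the control as the untreated parental line, and in another place as siRNA-treated. The mutant protein, the stable line that carries it and the treatment of the control therefore cannot be told apart. The nuclear fraction was the part of the cell left insoluble by detergent, which holds chromatin and nuclear speckles.

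PABPN1 stimulates poly(A) polymerase to lengthen the tail it binds. In addition to its role in making mRNA, this lengthening can mark a nuclear RNA for decay by the exosome, a complex of ribonucleases, and the pathway, which needs PABPN1 and these polymerases, has been named PPD. RNAs that stay in the nucleus, such as transcripts that run upstream and antisense from promoters, are among its known substrates. The substituted residues lie in the part of PABPN1 that stimulates the polymerase, and LALA acts as a dominant negative that blocks tail lengthening. The question put by the comparison is which nuclear polyadenylated RNAs were more or less abundant when tail lengthening was blocked in this way.

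The deposited table gives 1 value per gene and group, the mean FPKM over the 2 libraries. FPKM is the number of sequenced fragments scaled to the length of the exons and to the total of mapped fragments, which makes it a relative measure of abundance. With no values of single libraries no SD, test or p-value could be computed here for any difference below, and a fold change cannot be set against the spread between replicates. The sources used here do not give the depth of the libraries. Of the 30809 assembled genes, 13880 had at least 1 FPKM in either group and a value above 0 in both, and these are the genes compared. A gene is counted as higher or lower where the means differed by 2-fold or more.

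LALA nuclear RNA held many more RNAs above the control level than below it. Of the genes compared, 1073 (7.73%) were at least 2-fold higher in LALA nuclear RNA and 87 (0.627%) were at least 2-fold lower. The difference was at least 4-fold at 366 of the higher and 9 of the lower genes. The median log2 of LALA over control was -0.16, with quartiles of -0.32 and 0.08, so medians of gene groups are given below relative to this shift. The RNAs that were higher were of low abundance, with a median of 2.08 FPKM in LALA nuclear RNA and 0.630 FPKM in control nuclear RNA, against medians of 10.8 and 11.6 FPKM over all genes compared. As many as 722 of the 1073 lay below 1 FPKM in control nuclear RNA and entered only through their LALA level. A further 45 genes at 1 FPKM or more in LALA nuclear RNA were listed at 0 in control nuclear RNA, and 16 the other way round, and these have no fold change.

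**Figure D1:**
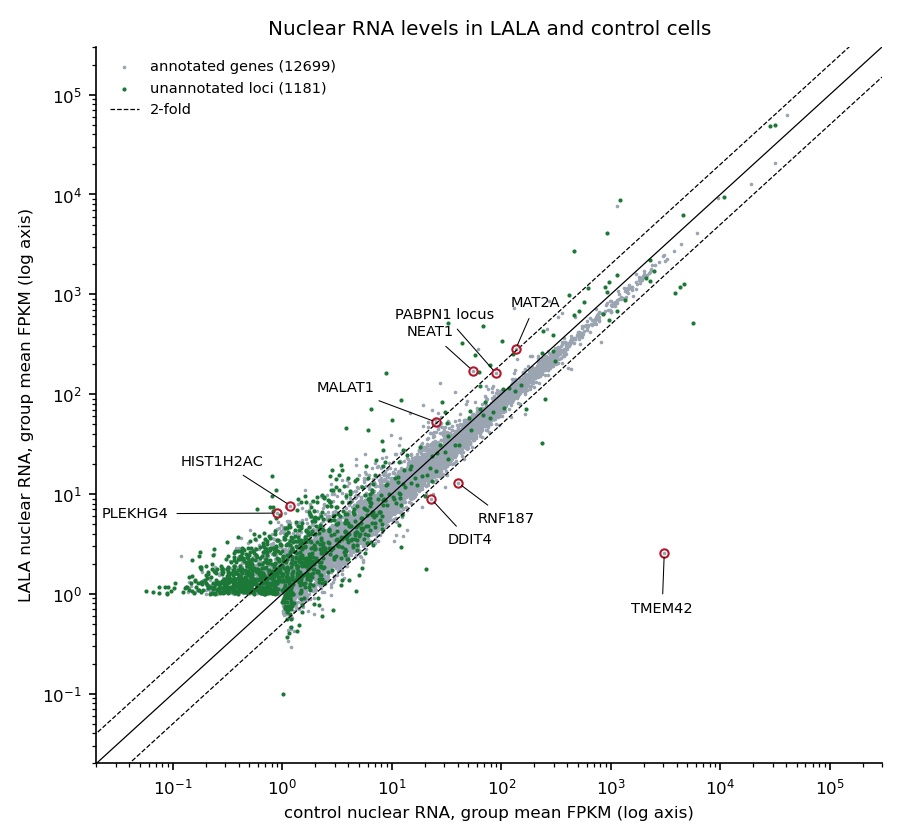
Group mean FPKM of each gene compared in LALA nuclear RNA (vertical, log axis) against control nuclear RNA (horizontal, log axis), with annotated genes in grey and unannotated loci in green. The solid line marks equal values and the dashed lines 2-fold. Of the 1181 unannotated loci, 578 lie on or above the upper line. The locus named TMEM42 (2.55 against 3077 FPKM), whose long span may hold other transcripts, stands far below the lower one.

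Loci to which the assembly gave no gene name, called unannotated here, made up 53.9% of the higher genes. They were 1181 (8.51%) of the genes compared, with 578 at least 2-fold higher and 33 lower, and some of them overlap annotated genes. The counts depend on how loci are admitted. With at least 1 FPKM in control nuclear RNA, 152 of 644 unannotated loci (23.6%) were at least 2-fold higher and 33 (5.12%) lower, against 199 (1.63%) and 54 (0.442%) of 12230 annotated genes. With at least 1 FPKM in siPAP nuclear RNA, a group outside the comparison in which many of these loci were also above control, 410 of 967 unannotated loci (42.4%) were at least 2-fold higher and 25 (2.59%) lower, while 400 of 12294 annotated genes (3.25%) were higher and 47 (0.382%) lower. On this second choice the median log2 was 0.76 for the unannotated loci and -0.18 for the annotated genes, and on the first 0.24 and -0.19.

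Where an unannotated locus lay relative to protein-coding genes went with how often it was higher. Positions were taken from GENCODE on the same build, hg19. Of loci that overlap no protein-coding gene and lie within 5 kb of a 5′ end, 118 of 178 (66.3%) were at least 2-fold higher. The share was 39.8% (164 of 412) for loci overlapping a protein-coding gene, 35.1% (20 of 57) within 5 kb of a 3′ end and 33.8% (108 of 320) farther away. These shares use loci with at least 1 FPKM in siPAP nuclear RNA, where loci near 5′ ends also stood above control (median log2 1.27), so loci entered through a group in which they were high. With at least 1 FPKM in control nuclear RNA the shares were 45.9% (45 of 98) near a 5′ end, 20.1% (57 of 283) for overlapping loci, 16.1% (5 of 31) near a 3′ end and 19.4% (45 of 232) farther away.

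**Figure D2:**
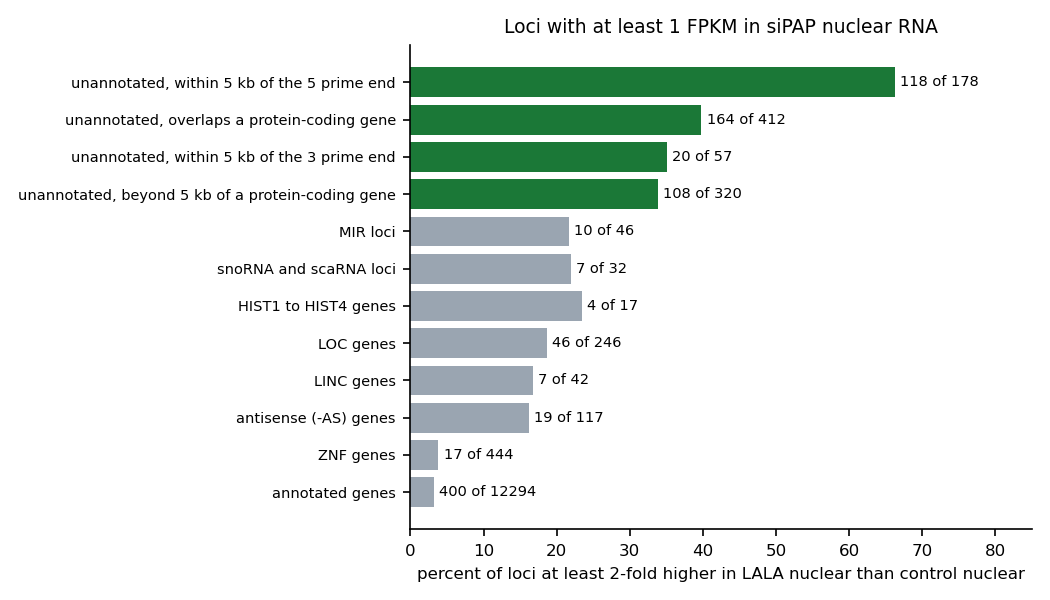
Percent of loci at least 2-fold higher in LALA nuclear than in control nuclear RNA, for unannotated loci by position (green) and annotated genes by name (grey), among loci with at least 1 FPKM in siPAP nuclear RNA, where many of them were also high. Numbers beside the bars give higher loci of all loci, from 118 of 178 near a 5′ end of a protein-coding gene to 400 of 12294 annotated genes.

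Promoter upstream transcripts (PROMPTs) are short-lived RNAs that start beside a gene's promoter and run the other way. The study's supplementary table names 149 assembled loci as PROMPTs by inspection of the read traces, and since these were picked among genes called higher in all of its comparisons, this one included, their fold changes are a description. Of the 149, 135 were at least 2-fold higher here, with a median of 3.44 FPKM in LALA nuclear RNA and 1.03 FPKM in control nuclear RNA. The PROMPT of TSG101, XLOC_004340 at chr11:18548510-18549859, had 6.73 FPKM in LALA and 0.823 FPKM in control nuclear RNA (log2 3.03). The one upstream of PRPF38B, XLOC_002143, had 17.3 and 3.5 FPKM, and the one upstream of RNF139, XLOC_028088, had 15.1 and 2.70 FPKM, LALA nuclear RNA first.

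The genes beside these PROMPTs were within 2-fold of control. For 70 PROMPTs with a locus of their own and a measured partner gene, 66 PROMPTs and none of the 70 genes were at least 2-fold higher. None of the 70 genes was 2-fold lower. Of all annotated genes compared 3.90% were higher and 0.425% lower, so the absence of such genes among these 70 says little. The genes ranged in log2 from -0.58 to 0.52 around a median of -0.14, near that of all genes. TSG101, which encodes a subunit of the endosomal sorting complex, had 72.3 FPKM in LALA and 81.0 FPKM in control nuclear RNA. PRPF38B had 70.6 and 75.3 FPKM, and RNF139, a membrane-bound ubiquitin ligase, had 24.5 and 26.8 FPKM. HSPA8, the constitutive heat shock protein, had 1074 FPKM in LALA and 1163 FPKM in control nuclear RNA. The PROMPT that the study assigns to it had 5.22 and 0.770 FPKM.

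PROMPTs are polyadenylated, so the sequence at their 3′ ends was looked at for AATAAA, the most common signal for cleavage and polyadenylation. Of 73 PROMPT loci with a locus of their own, taken on the strand opposite to the gene, 7 (9.59%) held AATAAA in their last 50 bases and 0 in their first 50. The motif stood in 4.19% of 4656 windows of 50 bases tiling the same loci, and in 9.0% of 2256 windows at both ends, each read outward, of the unannotated loci compared. The assembled ends are not exact, and these shares are a description. The 3 windows below, 30 bases each of hg19 read 5′ to 3′ on the PROMPT's strand, show the motif in capitals.
XLOC_000604, upstream of SYDE2, chr1:85669340-85669369, plus strand: atgatgAATAAAcatttttgaattaatatc
XLOC_016700, upstream of ACVR2A, chr2:148600738-148600767, minus strand: ggtttttAATAAAacaactgtataatatgg
XLOC_011183, upstream of ANKFY1, chr17:4171697-4171726, plus strand: gcatgcaAATAAAacgttttggctctatac
The SYDE2 PROMPT had 1.65 FPKM in LALA and 0.367 FPKM in control nuclear RNA, that of ACVR2A 1.22 and 0.350 FPKM, and that of ANKFY1 1.04 and 0.463 FPKM.

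Among the 10 unannotated loci with the largest ratios at 5 FPKM or more, some were short and some overlapped a protein-coding gene. XLOC_020729, 183 bases at chr4:49237546-49237728, had 164 FPKM in LALA and 8.87 FPKM in control nuclear RNA. XLOC_003073 at chr10:46951453-46972955, overlapping SYT15B, had 45.8 and 3.79 FPKM. A pair on chromosome 19, XLOC_013860 and XLOC_013861, both given the span chr19:47362834-47508333, which overlaps ARHGAP35, had 7.13 and 7.46 FPKM in LALA against 0.586 and 0.817 FPKM in control nuclear RNA. Here siPAP nuclear RNA was lower than LALA, at 1.62 and 2.31 FPKM. Of the 5 unannotated loci that were lowest relative to control, 4 were shorter than 300 bases, among them XLOC_011379 of 107 bases with 516 FPKM in LALA and 5608 FPKM in control nuclear RNA. FPKM divides by length, so values at such short loci are large and rest on few bases.

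The targeted gene checks the labels. The assembly merged PABPN1 with its neighbour BCL2L2 at chr14:23775949-23795394, and the merged locus had 162 FPKM in LALA and 89.1 FPKM in control nuclear RNA (log2 0.86), with 99.6 FPKM in siPAP nuclear RNA. The table does not separate the transgene from the endogenous gene. The polymerase genes were near control: PAPOLA, which encodes PAPα, had 56.0 FPKM in LALA and 61.7 FPKM in control nuclear RNA, and PAPOLG, which encodes PAPγ, had 9.74 and 10.6 FPKM. In siPAP nuclear RNA they were at 11.2 and 4.46 FPKM. The cytoplasmic poly(A)-binding proteins PABPC1 (358 against 440 FPKM) and PABPC4 (87.1 against 107 FPKM) each had a log2 of -0.30. Of the 19 loci of poly(A) polymerases and poly(A)-binding proteins none was past 2-fold. Of all annotated genes 3.90% were higher and 0.425% lower, so this count says little.

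**Figure D3:**
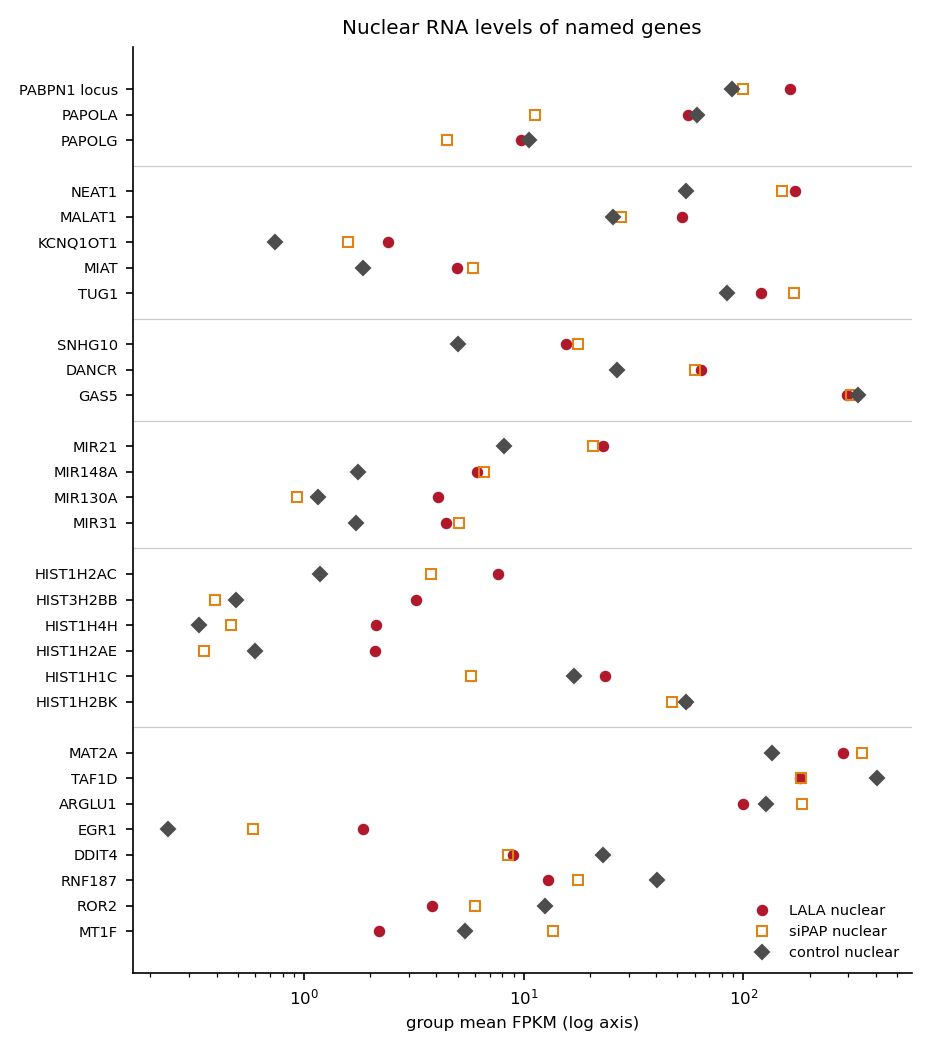
Group mean FPKM (log axis) of named genes in LALA nuclear (red circles), siPAP nuclear (open orange squares) and control nuclear RNA (grey diamonds). The red and orange marks lie together for NEAT1, SNHG10 and MIR21, and apart for MALAT1 (52.4 and 27.9 FPKM), HIST3H2BB (3.22 and 0.392 FPKM) and PAPOLA (56.0 and 11.2 FPKM).

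Long noncoding RNAs that reside in the nucleus were among the annotated RNAs that were higher. NEAT1, the scaffold of paraspeckles, had 172 FPKM in LALA and 54.7 FPKM in control nuclear RNA (3.15-fold). MALAT1, which collects in nuclear speckles, had 52.4 and 25.4 FPKM, KCNQ1OT1, an antisense RNA of an imprinted domain, had 2.41 and 0.738 FPKM, and MIAT had 5.0 and 1.86 FPKM. With GAS5-AS1, these made 5 of the 12 measured members of the list that were at least 2-fold higher, with none lower. The list was drawn up as nuclear long noncoding RNAs, but where each member resides was not examined here. Over all genes compared 7.73% were higher and 0.627% lower. The list's median log2 of 0.41 lay 0.57 above that of all genes. At a floor of 5 FPKM the list's median was 0.04, against -0.21 for all genes. TUG1 (121 against 84.1 FPKM), LINC00657 (161 against 157 FPKM) and OIP5-AS1 (11.2 against 13.7 FPKM) were within 2-fold. MALAT1 was at 27.9 FPKM in siPAP nuclear RNA, close to its control level, while NEAT1 was at 150 FPKM there. The study describes MALAT1 as lacking a poly(A) tail, so what its FPKM measures in poly(A)-selected libraries is not known here. Genes named as antisense were at least 2-fold higher at 19 of 117 loci with 1 FPKM or more in siPAP nuclear RNA, LINC genes at 7 of 42 and LOC genes at 46 of 246. At least 2-fold lower were 2, 0 and 2 of them. By the same choice 6.11% of all genes were higher and 0.543% lower. These 3 classes were also above control in siPAP nuclear RNA (median log2 0.29, 0.33 and 0.29), so loci entered through a group in which they were high. Chosen after its values were seen, SETD5-AS1 had 47.6 FPKM in LALA and 19.4 FPKM in control nuclear RNA.

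Noncoding host genes of small nucleolar RNAs (snoRNAs) carry snoRNAs in their introns and leave a spliced RNA with no known protein product. Of 15 measured, 2 (13.3%) were at least 2-fold higher and none lower, where 7.73% of all genes were higher and 0.627% lower, so the count says little of these genes as a group. SNHG10 had 15.5 FPKM in LALA and 5.02 FPKM in control nuclear RNA, and DANCR, merged with SNORA26, had 64.0 and 26.6 FPKM. SNHG1 (444 against 264 FPKM) and SNHG8 (227 against 140 FPKM) had log2 values of 0.75 and 0.69. GAS5 (297 against 332 FPKM), SNHG5 (187 against 240 FPKM) and ZFAS1 (37.8 against 47.2 FPKM) were below control by less than 2-fold. SNHG7, merged with SNORA17 and SNORA43, had 75.1 FPKM in LALA and 71.8 FPKM in control nuclear RNA, and 220 FPKM in siPAP nuclear RNA. In siPAP and control total RNA the merged locus had 73.7 and 87.2 FPKM.

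Primary microRNA transcripts are long nuclear RNAs from which a hairpin is cut to give the mature microRNA. Loci named for microRNAs were at least 2-fold higher at 10 of 46 (21.7%) with 1 FPKM or more in siPAP nuclear RNA, and none was lower. By the same choice 6.11% of all genes were higher and 0.543% lower, so the absence of lower loci says little. The microRNA loci were also above control in siPAP nuclear RNA (median log2 0.56), the group through which they entered. MIR21 at chr17:57918547-57919759 had 22.9 FPKM in LALA and 8.12 FPKM in control nuclear RNA, and MIR148A had 6.14 and 1.76 FPKM. The locus of LOC284454 and MIR24-2 had 6.24 and 2.23 FPKM, MIR31 had 4.44 and 1.73 FPKM, and the host gene of let-7a-3 and let-7b had 1.60 and 0.362 FPKM. MIR130A had 4.09 FPKM in LALA, 1.16 FPKM in control and 0.927 FPKM in siPAP nuclear RNA. MIR221 with MIR222 (6.48 against 6.57 FPKM) and MIR30B (5.28 against 5.6 FPKM) were level with control. The table measures long polyadenylated RNA, not the mature microRNAs. The mature sequences are shown to say which microRNAs these transcripts hold, from RefSeq on GRCh38.p14, with the seed, bases 2 to 8, in capitals.
hsa-let-7a-5p: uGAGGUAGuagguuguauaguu
hsa-let-7b-5p: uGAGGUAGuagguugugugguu
hsa-miR-4458: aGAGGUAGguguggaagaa
hsa-miR-21-5p: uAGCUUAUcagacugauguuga
hsa-miR-148a-3p: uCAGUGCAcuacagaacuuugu
hsa-miR-24-3p: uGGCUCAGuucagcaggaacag
hsa-miR-31-5p: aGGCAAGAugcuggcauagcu
hsa-miR-130a-5p: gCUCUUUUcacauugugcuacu
The first 3 share the let-7 seed. They come from only 2 loci, the host gene above and LOC100505738 with MIR4458, which had 12.9 FPKM in LALA and 6.42 FPKM in control nuclear RNA.

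Histone genes of the replication-dependent kind make mRNAs that end in a stem-loop in place of a poly(A) tail, so a library of polyadenylated RNA holds only their tailed forms. Of their 68 loci, 25 could be compared, and 10 of these were at least 2-fold higher and 1 lower, but 7 of the 10 lay below 1 FPKM in control nuclear RNA. For all genes compared the shares were 7.73% higher and 0.627% lower. Among the 16 with at least 1 FPKM in siPAP nuclear RNA, 4 were higher and none lower, with a median log2 of 0.51. By that choice 6.11% of all genes were higher and 0.543% lower. HIST1H2AC had 7.65 FPKM in LALA and 1.18 FPKM in control nuclear RNA (6.48-fold), and the locus of HIST1H2AM and HIST1H3J had 5.47 and 1.5 FPKM. HIST1H2BK, the member with the highest level, had 54.8 and 55.0 FPKM, and the linker histone HIST1H1C had 23.4 and 17.0 FPKM. For several members LALA stood well above siPAP nuclear RNA: HIST3H2BB had 3.22 FPKM in LALA, 0.392 FPKM in siPAP and 0.490 FPKM in control nuclear RNA, and HIST1H1C had 5.77 FPKM in siPAP nuclear RNA. The polyadenylated replication-independent histones had no member past 2-fold among 11, with H2AFZ at 385 and 525 FPKM and H3F3B at 112 and 133 FPKM. Among 9 genes that process histone mRNA none was past 2-fold, and SLBP, which binds the stem-loop, had 80.4 and 102 FPKM. In lists this small such counts say little.

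The annotated genes with the largest ratios at 5 FPKM or more included several second loci under the name of a coding gene. The locus named PLEKHG4 with the largest ratio, XLOC_010995 in chr16:67309213-67360661, had 6.42 FPKM in LALA and 0.895 FPKM in control nuclear RNA (7.18-fold), but another locus of that name had 2.40 and 2.58 FPKM. One locus named PCF11, a cleavage factor of mRNA 3′ ends, had 22.3 and 4.66 FPKM, and another 29.7 and 31.4 FPKM. One named DUT, an enzyme that breaks down dUTP, had 5.21 and 0.913 FPKM, and another 21.3 and 38.3 FPKM. Of the 20 annotated genes with the largest increase, 10 had such other loci at 1 FPKM or more, and 3 of these 14 other loci were at least 2-fold higher. Some noncoding RNAs carry in this assembly the name of an overlapping or adjoining gene, so a name need not stand for the mRNA. In siPAP nuclear RNA 6.82% of 13636 genes compared were at least 2-fold above the same control libraries and 2.02% below. Since both comparisons divide by those libraries, an overlap between them is a description only. Among the 20, 17 were also at least 2-fold above control in siPAP nuclear RNA. The other 3, SNORD97, SNORA57 and the locus of MIR3651 and SNORA84, were listed at 0 in siPAP nuclear RNA.

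The largest decreases were at single loci whose named genes have varied roles. The locus named TMEM42 had 2.55 FPKM in LALA nuclear RNA and 3077 FPKM in control nuclear RNA. It had 4400 FPKM in siPAP nuclear RNA but 2.88 and 2.09 FPKM in siPAP and control total RNA. Among the 5 groups of the series the high values were thus confined to the nuclear RNA of siPAP and control cells. This locus spans 112260 bases, so its value may hold other transcripts, and the name need not stand for the mRNA. ROR2, a receptor for Wnt5a, had 3.81 FPKM in LALA and 12.5 FPKM in control nuclear RNA, and RNF187 had 12.9 and 40.4 FPKM. FOXD1, a transcription factor of kidney stroma, had 3.92 and 10.8 FPKM, and DDIT4, an inhibitor of mTORC1, had 8.91 and 22.9 FPKM. SAP30, a subunit of the Sin3 deacetylase complex, had 9.97 and 24.0 FPKM. TAF1D, a host of snoRNAs, had 181 and 404 FPKM. Of the 20 largest decreases, 9 were also at least 2-fold below control in siPAP nuclear RNA, where 2.02% of all genes compared were. Among the 9 were DDIT4 (8.50 FPKM in siPAP nuclear RNA) and RNF187 (17.7 FPKM). The control libraries are shared, so this count is a description. The metallothionein gene MT1F had 2.2 FPKM in LALA and 5.42 FPKM in control nuclear RNA, while siPAP nuclear RNA was above both at 13.6 FPKM.

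Genes of basic cell functions sat below the shift of all genes, nearly all by less than 2-fold. The median of cytosolic ribosomal proteins was 0.25 below that of all genes on the log2 scale, with 2 of 80 loci above the overall median and 1 low locus named RPS21 (2.63 against 0.760 FPKM) above 2-fold. Genes of the respiratory chain and ATP synthase were likewise 0.25 below it, with 5 of 77 loci above the overall median. Of these loci 1, below 1 FPKM in control nuclear RNA, was at least 2-fold higher (log2 2.69). NDUFV1, a subunit of complex I, had 60.04 FPKM in LALA and 96.3 FPKM in control nuclear RNA. Glycolysis genes were 0.26 below it, with 3 of 21 above the overall median. Members include GAPDH (769 against 1102 FPKM) and PKM (254 against 386 FPKM). Genes of cholesterol and fatty acid synthesis were the lowest list, 0.31 below, with FADS2 at 17.1 and 28.1 FPKM. The median log2 of annotated genes itself fell with level, to -0.32 at 100 FPKM or more in siPAP nuclear RNA. In control nuclear RNA the ribosomal protein and respiratory lists had medians of 1287 and 103 FPKM, the glycolysis and lipid lists 50.5 and 38.0 FPKM. The part of level in the gaps of these lists was not tested.

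Lists of factors that act on nuclear RNA had few members past 2-fold. Of all annotated genes compared, 3.90% were higher and 0.425% lower, so such counts in short lists say little of these factors. In the exosome and its nuclear cofactors none of 23 loci was, but ZFC3H1, a cofactor that links the exosome to polyadenylated RNA, had 41.5 FPKM in LALA and 25.3 FPKM in control nuclear RNA (log2 0.72) and 49.9 FPKM in siPAP nuclear RNA. EXOSC10, the nuclear exosome ribonuclease, had 35.8 and 40.2 FPKM in LALA and control nuclear RNA. Among 18 cleavage and polyadenylation loci the PCF11 locus above was the 1 past 2-fold, and CSTF3 had 242 and 183 FPKM. No member of the hnRNP proteins (20), the mRNA export factors (18) or the nonsense-mediated decay factors (16) was past 2-fold. ALYREF, an export adaptor, had 79.5 FPKM in LALA and 149 FPKM in control nuclear RNA (log2 -0.91).

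mRNAs with introns that are spliced late, called detained introns, are held in the nucleus. MAT2A, which makes S-adenosylmethionine, had 284 FPKM in LALA and 135 FPKM in control nuclear RNA (log2 1.07), and 345 FPKM in siPAP nuclear RNA. It was the 1 of 20 members at least 2-fold higher, and TAF1D the 1 lower. The shares of all annotated genes were 3.90% higher and 0.425% lower. OGT, which attaches GlcNAc to proteins, had 80.5 and 84.4 FPKM, and ARGLU1 had 100 FPKM in LALA, 126 FPKM in control and 185 FPKM in siPAP nuclear RNA. CLK1, a kinase of splicing factors, had 36.5 and 50.5 FPKM in LALA and control nuclear RNA. The measure is of the whole gene, so retained and spliced forms are not separated.

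Stress and signalling lists varied gene by gene. Among all genes compared 7.73% were higher and 0.627% lower, so the small counts here say little of each list. Among immediate early genes, which are switched on within minutes of a growth or stress signal, EGR1 (1.86 against 0.240 FPKM) and ETV5 (1.68 against 0.569 FPKM) were at least 2-fold higher, both from below 1 FPKM, and the list's median lay 0.41 above that of all genes, with 16 of 22 loci above it. MYC had 32.1 and 46.8 FPKM. In the interferon and double-stranded RNA list OAS3 (3.11 against 1.20 FPKM) and a locus named IFIT1 (1.80 against 0.491 FPKM) were higher, among 16. Among 23 loci of the integrated stress response DDIT4 alone was past 2-fold, PPP1R15A had 46.8 and 28.8 FPKM, and PHGDH, of serine synthesis, had 81.1 and 142 FPKM. The p53 targets had 1 locus of 23 past 2-fold, TP53I3 at 4.15 and 1.89 FPKM, while CDKN1A had 15.1 and 13.8 FPKM. DNA replication genes lay 0.17 below the shift of all genes, with MCM5 at 37.8 and 57.2 FPKM and LIG1 at 23.4 and 37.4 FPKM. The part of level in this gap was not tested.

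**Figure D4:**
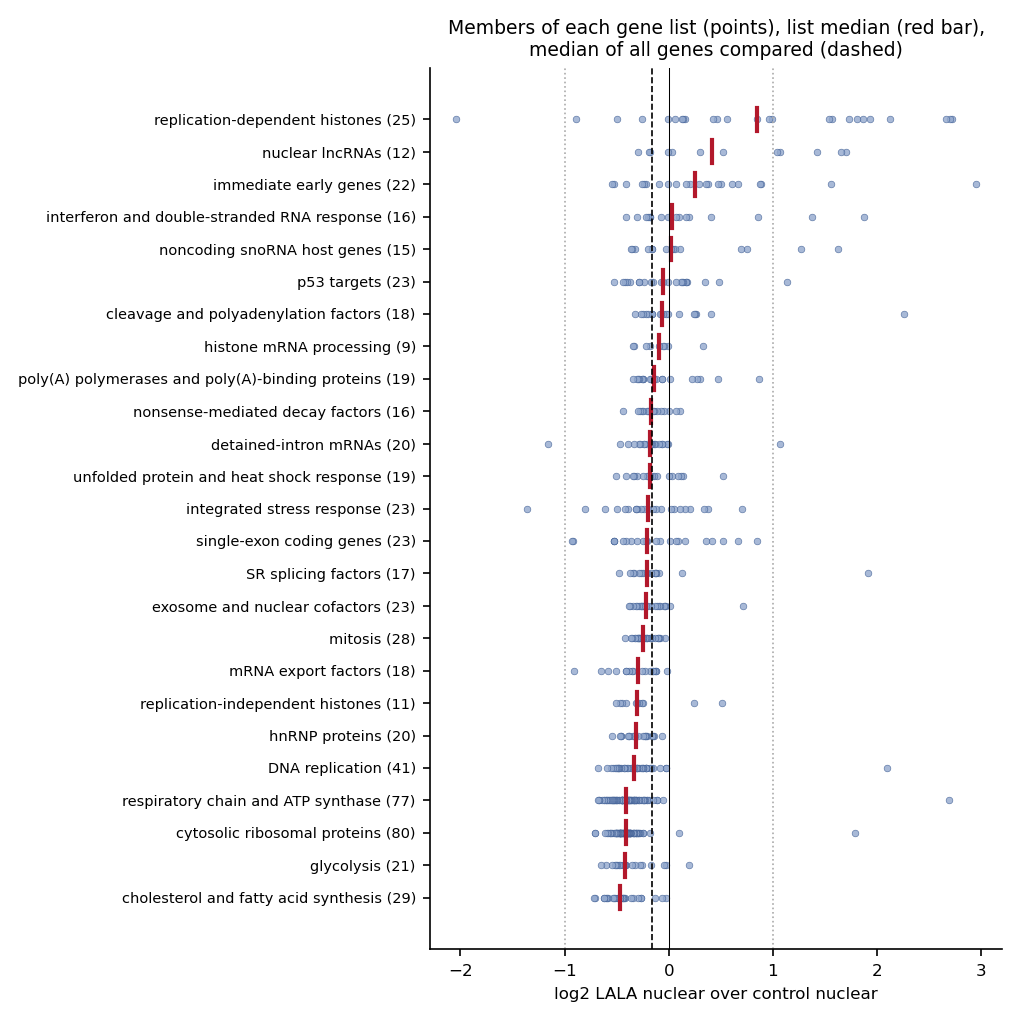
Log2 of LALA nuclear over control nuclear for each measured member (points) of 25 gene lists, with the list median as a red bar, the median of all genes (-0.16) dashed and 2-fold dotted. Replication-dependent histones and the list named nuclear lncRNAs stand highest. The medians for ribosomal proteins, glycolysis, the respiratory chain and lipid synthesis lie left of the dashed line.

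The difference went with level and with exon number across annotated genes. Binned by their siPAP nuclear level, annotated genes had a median log2 of 0.02 at 1 to 2 FPKM, -0.14 at 5 to 10 FPKM and -0.32 at 100 FPKM or more. Exon numbers of the canonical GENCODE transcript were found for 96.6% of 12159 genes, but for 81.6% of the 463 of them that were at least 2-fold higher. The shares below therefore leave out many of these. Exon numbers were matched by gene name, so a second locus under a coding gene's name may carry that gene's exon number. The median log2 was 0.06 for 282 genes with 1 exon, -0.08 for those with 2 to 3, -0.17 with 4 to 6 and -0.23 with 21 or more, and 12.4% of the first against 1.62% of the last were at least 2-fold higher. Genes with 1 exon were also of lower level, with a median of 5.0 FPKM in control nuclear RNA, against 13.7 FPKM for those with 21 or more, and the part of level in this order was not tested. Binned by nuclear enrichment, taken as siPAP nuclear over siPAP total, the order was not the same throughout. The share at least 2-fold higher was 3.2% of 219 genes at a log2 enrichment of -1 to -0.5, and 1 of 10 genes below that. Above it, 0.955% of 6598 genes with a log2 enrichment of -0.5 to 0 were at least 2-fold higher, 5.44% of 5019 genes at 0 to 0.5 and 13.8% of 687 genes at 0.5 to 1. Of 33 genes above 1, 8 were higher and 4 lower.

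Medians by chromosome lay close together. The median log2 of annotated genes with 1 FPKM or more in both groups lay between -0.23 and -0.15 on each of the autosomes and on X. Over 285 windows of 10 Mb with 10 or more genes the medians ran from -0.40 to 0.21. The highest was on chromosome 19 at 20 to 30 Mb, with 26 genes and a median of 0.21, where the median for siPAP nuclear over the same control libraries was 0.14. Next came chromosome 6 at 20 to 30 Mb, with 60 genes and 0.08 for LALA against -0.01 for siPAP. Zinc finger (ZNF) genes had a median log2 of 0.11 at 217 loci on chromosome 19 and 0.01 at 239 loci elsewhere.

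**Figure D5:**
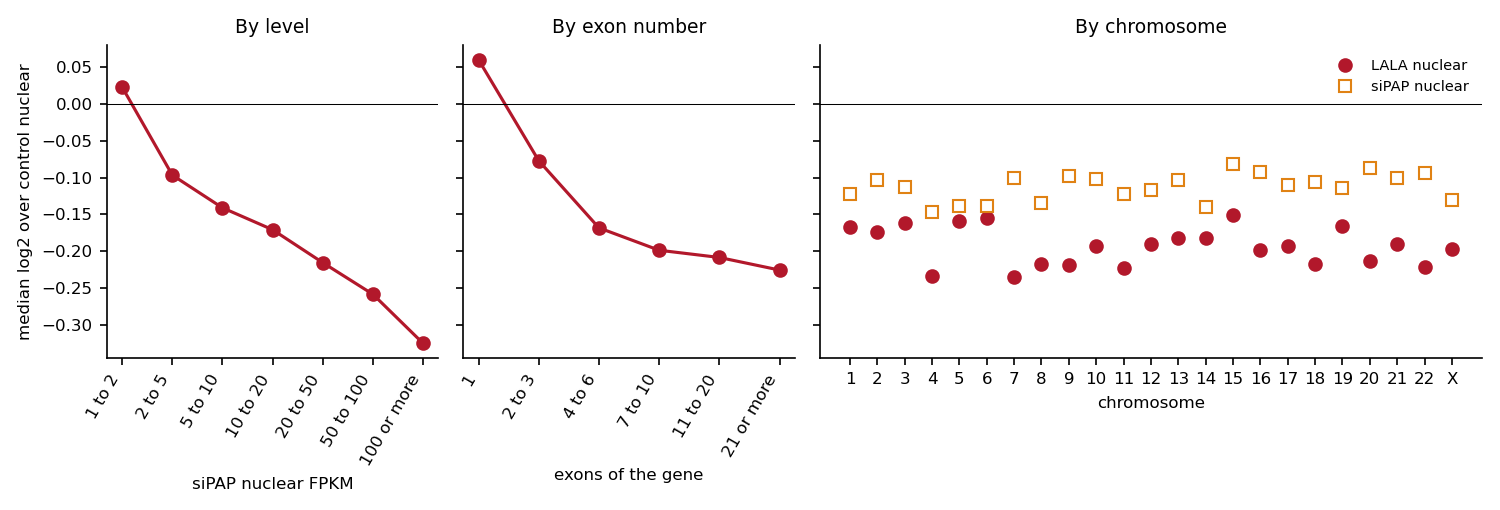
Median log2 of annotated genes over control nuclear RNA, by siPAP nuclear level (left), by exon number (middle) and by chromosome (right), for LALA nuclear (red circles) and, by chromosome, siPAP nuclear (open orange squares). The LALA median declines with level and with exon number, and lies within -0.23 to -0.15 on every chromosome.

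Set directly against siPAP nuclear RNA, LALA nuclear RNA was at least 2-fold higher at 394 (2.82%) of 13967 genes and at least 2-fold lower at 175 (1.25%). Besides PAPOLA, which the siRNA targets, the 10 annotated genes with the largest ratios above siPAP included HIST1H1C (23.4 against 5.77 FPKM), UCP2, a mitochondrial carrier (23.1 against 8.62 FPKM), and HSPA1B, an inducible heat shock protein (40.6 against 15.2 FPKM). UCP2 was at 28.0 FPKM and HSPA1B at 28.3 FPKM in control nuclear RNA. Below siPAP, besides TMEM42 and MT1F, a locus named SUGT1 had 4.01 FPKM in LALA and 10.8 FPKM in siPAP nuclear RNA, with 2.04 FPKM in control nuclear RNA. SNHG7, described above, was also among the 10 with the largest ratios below siPAP.

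The siPAP total and control total libraries are separate from those of the LALA comparison, so an overlap between these comparisons shares no library. Separate libraries need not mean separate cell cultures. At least 2-fold higher were 5.41% and lower 1.55% of 13318 genes in siPAP total over control total RNA. Of 13121 genes compared in both, 670 were at least 2-fold higher in LALA nuclear RNA and 652 in siPAP total RNA, and 465 were higher in both. That is 69.4% of the LALA genes and 71.3% of the siPAP total genes, where siPAP total RNA was higher at 4.97% of all genes compared. A gene below 1 FPKM in both controls entered this set only if it reached 1 FPKM in both LALA nuclear and siPAP total RNA. This choice favours shared increases, so the shares are a description. Among the lower genes, 10 were shared of 73 in LALA nuclear and 191 in siPAP total RNA (13.7% and 5.24%), where 1.46% of all genes were lower in siPAP total RNA.

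Markers of cell identity were read in both groups. Of 12 loci of 11 markers linked to HEK293, 8 were at 1 FPKM or more in LALA and in control nuclear RNA, among them VIM (230 against 292 FPKM), NEFL (14.4 against 15.7 FPKM) and LIN28B (23.9 against 24.8 FPKM), while PAX2 and IRS4 were below 0.2 FPKM in both. Of the markers of other cell types, those of liver, endothelium and muscle were below 1 FPKM in both groups, 1 blood locus of 6 was at 1 FPKM or more in each, and fibroblast markers reached it at 1 of 4 loci in LALA and 2 of 4 in control nuclear RNA. The nuclear RNAs NEAT1 and MALAT1 summed to 225 FPKM in LALA and 80.1 FPKM in control nuclear RNA, and 4 mRNAs that are mainly cytoplasmic (ACTB, GAPDH, EEF1A1 and RPL30) to 4052 and 5270 FPKM. The part of these sums in the differences above was not tested.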

How the data were processed

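RNA selected for poly(A) was sequenced as stranded paired-end libraries, 2 per group. The authors aligned reads to hg19 with TopHat2, assembled transcripts and computed with Cuffdiff the deposited FPKM values, 1 mean per gene and group. Their columns of fold changes, test statistics and p and q values were not used. From the group means, log2 ratios were computed with Python 3.11.15, pandas 2.3.3 and numpy 2.4.6, with a floor of 1 FPKM in either group, values above 0 in both and no pseudocount. Values of single libraries were not used here, so no test across samples was run and a threshold of 2-fold was used, and the ratio script was tested on simulated data. Unannotated loci were placed with GENCODE release 44 on GRCh37, the sequence of hg19, within 5 kb. Named were the 20 annotated genes with the largest increase and the 20 with the largest decrease at 5 FPKM or more in the higher group, 10 and 5 unannotated loci by the same measure, the 10 in each direction against siPAP, members of 26 lists and genes the study discusses. Genes of chromosome Y and XIST were left out. The genes, lists and comparisons were chosen with earlier results of these data known.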

Additional observations from a re-analysis of the deposited data

How the results depend on the processing

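The counts depend on the floor, the pseudocount and the fold threshold. In the order all genes higher, unannotated higher and annotated higher, against 1073, 578 and 495, a floor of 0.5 FPKM gave 1951, 1196 and 755, a floor of 5 FPKM 230, 96 and 134, no floor 4346, 2666 and 1680, a pseudocount of 1 FPKM 480, 255 and 225, and a 3-fold threshold 629, 381 and 248. A 1.5-fold threshold gave 872 annotated genes higher. Against 87 genes lower, the count was 44 at a floor of 5 FPKM, 464 with no floor, 49 with a pseudocount of 1 FPKM, 57 after centring on the median, 698 at 1.5-fold and 22 at 3-fold. Under each of these settings more genes were higher than lower. The medians of all genes, of the lists and by chromosome moved by less than 1.5-fold under every alternative run. Of 679 named loci, 31 moved by more than that with a pseudocount of 1 FPKM and none with 0.1 FPKM or centring. Of 2 alternatives chosen after seeing the data, leaving out loci under 300 bases gave 1057 higher and 80 lower, and a floor of 1 FPKM in control nuclear RNA gave 351 higher, 152 of them unannotated and 199 annotated, and 87 lower. No paired analysis was possible because the table holds group means only, and for the same reason leaving out each replicate was not run.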

Other observations

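Small nucleolar and Cajal body RNAs, which guide the modification of other RNAs and have no poly(A) tail in their mature form, had values in both directions. Of 41 loci compared, 11 (26.8%) were at least 2-fold higher and 4 (9.76%) lower, where 7.73% of all genes were higher and 0.627% lower. SCARNA1 had 65.2 FPKM in LALA and 14.7 FPKM in control nuclear RNA, while SNORA22 had 330.5 and 816 FPKM and SNORA63 had 176 and 429 FPKM. SNORD97 had 722 FPKM in LALA and 131 FPKM in control nuclear RNA and was listed at 0 in siPAP nuclear RNA. SCARNA16 had 78.2 FPKM in LALA, 16.9 FPKM in siPAP and 19.4 FPKM in control nuclear RNA. The assembled loci under these names are much longer than the small RNAs, 20932 bases for SCARNA1 and 123874 bases for SNORA22, so a value may hold other transcripts of the span.

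Loci with ZNF names, a set that holds genes of zinc finger proteins and some antisense RNAs, had a median 0.21 above that of all genes. Of 456, 21 (4.61%) were at least 2-fold higher and 0 lower, near the 3.90% of all annotated genes that were higher.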
